A study of Caenorhabditis elegans with 2 samples.

Results

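The regions described here are the nuclear LIN-13 peaks whose summit base is written in lower case (soft-masked) in the WBcel235 genome sequence, which marks repeated or low-complexity sequence. Of the 2121 nuclear peaks kept by the irreproducible discovery rate (IDR) step, 373 (17.6%) had such a summit and are called masked-summit peaks, and the other 1748 served as their comparison. The mask is a property of the genome sequence, so no measured value chose the members. LIN-13-bound chromatin was immunoprecipitated and sequenced from whole L4 larvae, both sexes pooled, of Caenorhabditis elegans strain OP49, which is mutant for unc119(ed3) and carries the transgene wgIs49, a lin-13::TY1 EGFP FLAG fusion with unc119. All samples fell into 1 group of 2 biological replicates, with no second condition analysed here, and a peak stands for pooled cells of every larval tissue. Sequencing depth is unknown, because the files held peaks and no read counts.

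LIN-13 has many zinc fingers and belongs to the synMuv B proteins, which restrain vulval fate. It acts with the heterochromatin protein HPL-2 and the MBT-repeat protein LIN-61, and these proteins are known from C. elegans for binding and silencing repeated DNA as well as for regulating genes. The nematode genome carries tandem repeats and dispersed DNA transposon remnants, mostly on the arms of the autosomes. It also carries multicopy genes such as those for tRNAs.

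How far the label "repeat" held depended on the measure. The masked run under the summit had a median length of 25 bp and ranged from 17 to 767 bp, where 17 bp was also the shortest run in the genome. In 331 masked-summit peaks (88.7%) the sequence within 100 bp of the summit had no nuclear match other than itself at 80% identity over 80% of its length, and the same held for 1701 other peaks (97.3%). By that measure 340 masked-summit peaks were few-copy sequence, 15 were short tandem repeats with a period of up to 6 bp, 2 were longer tandem repeats and 16 were many-copy elements with 10 or more nuclear matches. With 70% equal bases for tandems and 90% identity for copies the counts were 323 few-copy, 30 short tandem, 11 longer tandem and 9 many-copy. By either rule a run under 20 bp could not be called a short tandem. Such runs were searched only for periods of 7 bp or more. A match had to span 80% of the window, of which a median of 37.3% was masked in masked-summit peaks. A short repeated run could thus count as few-copy. The windows of the strongest eel-1 peak and of rps-24 had only their own match by this rule. They had 88 and 164 nuclear matches of 50 bp or more, own match included. A match here is an alignment and not a separate place in the genome, so overlapping alignments at the same place each count. These counts therefore do not show how many masked runs are repeated. The mask carries no family names, so groups of alike members are called families here and numbered by size.

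The sequences printed here, read from the RefSeq WBcel235 (ce11) genome, show the sequence around the summits of different kinds of member. The summit is the middle base of each. In the first 4, from unrelated peaks, capitals mark the masked run that holds the summit.
Peak upstream of lin-13 (chrIII:7710223-7710323, + strand): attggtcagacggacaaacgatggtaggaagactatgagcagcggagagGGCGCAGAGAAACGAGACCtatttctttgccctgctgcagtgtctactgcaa
Intergenic peak near C30E1.4 (chrX:16929681-16929781, + strand): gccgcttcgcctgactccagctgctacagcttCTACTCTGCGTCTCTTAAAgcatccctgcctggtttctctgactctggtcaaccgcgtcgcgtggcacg
Promoter peak of hmg-1.1 (chrII:14250413-14250513, + strand): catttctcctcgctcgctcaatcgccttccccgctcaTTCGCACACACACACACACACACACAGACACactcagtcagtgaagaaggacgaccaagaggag
Intron peak of kin-20 (chrX:15275468-15275568, + strand): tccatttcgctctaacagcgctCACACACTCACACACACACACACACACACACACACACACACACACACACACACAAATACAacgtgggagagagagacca
The lin-13 and C30E1.4 runs are 19 bp of sequence that is not a tandem repeat, while the runs at hmg-1.1 (31 bp) and kin-20 (60 bp) are mainly the dinucleotide CA. In the next 4, capitals mark 10-letter words, on either strand, that at least 33.3% of the members of the same family share within 100 bp of their summits. The fbxc-48 and pqn-41 peaks belong to family 1, and the eel-1 and rps-24 peaks to family 2.
Intergenic peak near fbxc-48 (chrII:732563-732703, + strand): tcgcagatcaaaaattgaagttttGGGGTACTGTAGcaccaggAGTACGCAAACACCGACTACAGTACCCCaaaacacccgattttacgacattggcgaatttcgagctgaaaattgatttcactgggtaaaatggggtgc
Intron peak of pqn-41 (chrIII:1938151-1938291, + strand): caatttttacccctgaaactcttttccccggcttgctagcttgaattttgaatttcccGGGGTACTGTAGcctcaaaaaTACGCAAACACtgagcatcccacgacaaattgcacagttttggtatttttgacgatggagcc
Promoter peak of eel-1 (chrIV:3050376-3050516, + strand): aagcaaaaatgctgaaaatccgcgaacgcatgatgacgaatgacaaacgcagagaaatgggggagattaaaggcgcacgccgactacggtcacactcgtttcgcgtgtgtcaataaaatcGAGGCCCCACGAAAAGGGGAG
Promoter peak of rps-24 (chrIV:385505-385645, + strand): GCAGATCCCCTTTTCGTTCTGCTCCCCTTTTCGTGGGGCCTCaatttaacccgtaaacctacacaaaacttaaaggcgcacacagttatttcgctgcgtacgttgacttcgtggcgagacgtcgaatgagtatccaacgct
In the last, from family 5 and chosen after its values were seen, capitals mark the longest pair of exact inverted arms, each of 36 bp and separated by 43 bp.
Promoter peak of ruvb-1 (chrV:9980888-9981038, + strand): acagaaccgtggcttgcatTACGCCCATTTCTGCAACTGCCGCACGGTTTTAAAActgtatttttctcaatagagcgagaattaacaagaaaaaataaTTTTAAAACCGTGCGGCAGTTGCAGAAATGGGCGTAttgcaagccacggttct
Both family 1 members hold GGGGTACTGTAG and TACGCAAACAC on the printed strand, and both family 2 members hold CCCCTTTTCG on one strand or the other.

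The strongest masked-summit peak was at lin-13 itself, 782 bp upstream of its 5' end (III, 7710150 to 7710355, ce11). Its authors' signal value was 286 in the pooled list, 159.8 in replicate 1 and 125 in replicate 2, and it ranked 13 among all nuclear peaks. The strain carries lin-13 sequence in its transgene as well as at its own locus. The next peak lay 293 bp upstream of C47E8.4 and inside hsp-90, the gene of the cytosolic HSP90 chaperone (V, 14685689 to 14685872), with signal values of 186 pooled, 102 in replicate 1 and 89.7 in replicate 2. A peak 31 bp downstream of the 5' end of rab-18, a Rab GTPase gene (III, 1080656 to 1080832), had 169 pooled, 100.1 in replicate 1 and 70.7 in replicate 2. The eel-1 peak, at a gene for a HECT-type ubiquitin ligase (IV, 3050353 to 3050559), had 158 pooled, 85.8 in replicate 1 and 73 in replicate 2. Signal values carry no stated scaling, so values of different lists are printed side by side and only ranks are compared between lists. By rank the lin-13 peak was 22 in replicate 1 and 26 in replicate 2, the hsp-90 peak 74 and 54, the rab-18 peak 79 and 93 and the eel-1 peak 105 and 87, each in the same order.

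The remaining 6 of the 10 strongest had pooled signal values from 132 to 155. The peak at hmg-1.1, which encodes an HMG-box DNA-binding protein, had 155 pooled, 79.4 in replicate 1 and 72.6 in replicate 2. The C30E1.4 peak had 153 pooled, 80.4 in replicate 1 and 81.2 in replicate 2. Small ribosomal subunit protein genes had 2 of them, a peak 124 bp upstream of rps-22 (149 pooled, 81.2 in replicate 1, 63.6 in replicate 2) and one 367 bp upstream of rps-15 (132 pooled, 56.5 in replicate 1, 74.4 in replicate 2). A peak in an intron of lelo-2 lay on a tRNA gene (144 pooled, 88 in replicate 1, 57.6 in replicate 2). The pqn-71 peak lay 32 bp from a tRNA gene (132 pooled, 81.2 in replicate 1, 52.1 in replicate 2). All 10 ranked at 283 or better in replicate 1 and at 211 or better in replicate 2, well inside the 2141 strongest peaks of each.

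The signal values of the whole set were shifted slightly below those of the other peaks, with wide overlap. They ranged from 40.2 to 286 with a median of 53.2 in masked-summit peaks and from 40.1 to 635 with a median of 57.1 in the other peaks. In replicate 1 the medians were 31.9 in masked-summit peaks and 33.6 in other peaks, and in replicate 2 they were 24.5 in masked-summit peaks and 26.7 in other peaks. Of the masked-summit peaks, 164 (44%) were in the upper 50% of the IDR list, against 888 other peaks (50.8%), a difference that passed the threshold of 0.05 (two-sided Fisher's exact test, adjusted p = 0.047 over 9 shares). Without the 30 members of family 1 (the fbxc-48 and pqn-41 sequences above and their kin), the shares were 44.3% of masked-summit peaks and 50.7% of other peaks, with an exact adjusted p of 0.1002, and the difference also missed the threshold in the list of replicate 2 alone (exact adjusted p = 0.0606).

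The masked sequence under the summits was short. Runs of 17 to 20 bp held 120 of the 373 summits (32.2%, exact 95% interval 27.5 to 37.2%) but only 8.58% of all masked nuclear bases. Runs of 101 to 300 bp held 31 summits (8.31%) against 19.4% of masked bases, and runs of 301 bp or more held 6 (1.61%) against 9.28%. The distance from summit to the nearest edge of the run had a median of 8 bp and was at most 10 bp in 258 members (69.2%). Every base of a run of up to 20 bp lies that close to an edge, so run length alone fixed this for 120 of the 258. Just outside the mask, 243 of the 1748 other peaks (13.9%) had a masked base within 10 bp of their summit, and 123 (7.04%) within 5 bp. A summit's membership therefore often rested on a few bases.

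**Figure D1:**
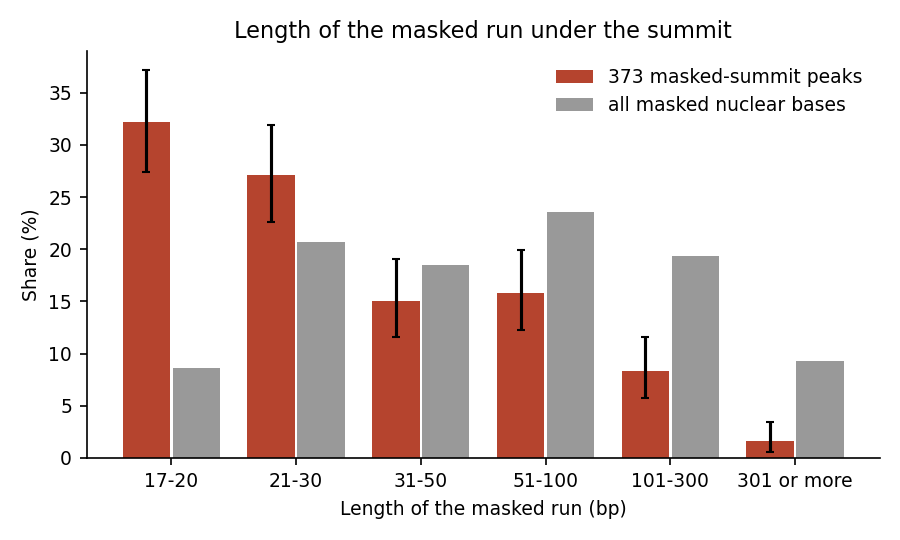
Share of the 373 masked-summit peaks (red, left bar of each pair, with exact 95% intervals) and of all masked nuclear bases (grey) by the length in bp of the masked run. Runs of 17 to 20 bp hold 32.2% of summits against 8.58% of masked bases, and the order is the other way round from 31 bp upwards.

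The base composition of the runs also differed from that of the mask at large. The runs under summits had a mean GC content of 40.4% ± 14.2 (SD, n = 373), while all masked bases had 26.4% and unmasked nuclear bases 40.5%. Within 100 bp of the summit, GC content was 41.3% ± 6.80 (SD, n = 373) in masked-summit peaks and 44.4% ± 6.69 (SD, n = 1748) in other peaks. In the same window 41.7% ± 22.5 of bases were masked in masked-summit peaks and 21.2% ± 17.5 in other peaks, a difference the rule itself builds in. These are descriptions over peaks, which are not replicates.

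Every part of the genome tested had fewer summits on masked bases than its masked share of bases. In promoter windows, taken as 500 bp on either side of a protein-coding 5' end, 183 of 1131 summits (16.2%) were on masked bases against 32.1% of bases, and outside them 190 of 990 (19.2%) against 36.8%. On the outer 33.3% of each autosome at either end, called arms, the share was 227 of 1118 (20.3%) against 41%, and in the central remainder 95 of 643 (14.8%) against 28.3%. The shares were lower on each of the 6 chromosomes, from 14.1% against 34% of bases on V to 21.9% against 39.9% on III (exact binomial tests, two-sided, adjusted p of 2.08e-11 or less over 10 parts). In introns 65 of 329 summits (19.8%) were on masked bases against 52% of bases, and in intergenic sequence 103 of 486 (21.2%) against 42.5% (adjusted p of 4.6e-23 or less over these 2 parts, which were added after seeing the data). Peaks were treated as independent, although they cluster along the genome, so these p-values are too small.

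Weaker peaks fell on masked bases more often. Among the 500 strongest pooled peaks 70 of 482 nuclear summits (14.5%, exact 95% interval 11.5 to 18%) were masked, among ranks 2142 to 5000 it was 25.2%, and among ranks 20001 to 30000 it was 40.3% (39.4 to 41.3%). The same order held in each replicate's own list, from 15.7% to 40% in replicate 1 and from 13.6% to 35.8% in replicate 2 between the first and last of these bins. The masked share of nuclear bases was 35.7%, so the weakest peaks of the pooled list and of replicate 1 were above it and those of replicate 2 were level with it.

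**Figure D2:**
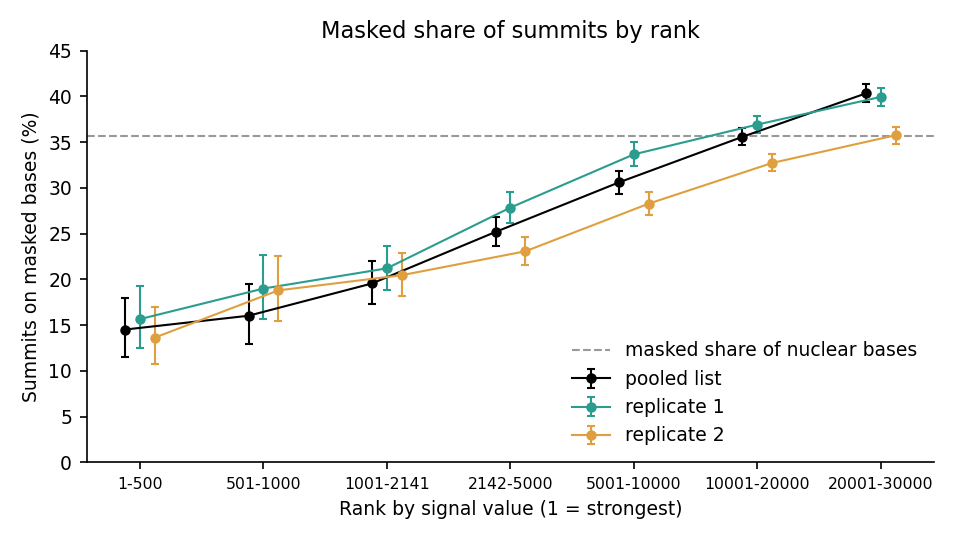
Share of nuclear summits on masked bases (%) by rank of the authors' signal value in the pooled list and in each replicate, with exact 95% intervals. In all 3 lists the share is between 13.6 and 15.7% in the first bin and between 35.8 and 40.3% in the last, against 35.7% of nuclear bases (dashed line).

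Masked-summit peaks were found in the same kinds of place as other peaks, with modest differences. Promoters held 183 (49.1%) against 948 other peaks (54.2%), a difference that did not pass the threshold (Fisher's exact test, adjusted p = 0.0981). Introns held 65 (17.4%) against 264 (15.1%) and did not pass either (exact adjusted p = 0.27). Intergenic sequence held 103 masked-summit peaks (27.6%) against 383 other peaks (21.9%), and this difference passed (exact adjusted p = 0.047). Non-coding RNA and pseudogene exons held 12 (3.22%) against 96 (5.49%, exact adjusted p = 0.0981). Coding exons held 1 masked-summit peak, in fat-6, a stearoyl-CoA desaturase gene (signal value 52.5 pooled), against 26 other peaks, 3' UTRs held 9 against 28, and 5' UTRs 0 against 3. The fat-6 peak had 37.5 in replicate 1 and 14.4 in replicate 2, and a 3' UTR peak of Y34D9A.8 had 81.45 pooled, 38 in replicate 1 and 48.8 in replicate 2. With the strongest peaks of replicate 1 alone the promoter difference (-6.72 points, exact adjusted p = 0.0234) and the intron difference (6.6 points, exact adjusted p = 0.00527) did pass, and with those of replicate 2 alone neither did (0.267 and 3.11 points). The non-coding and pseudogene exon difference passed in each replicate alone (-2.54 points in replicate 1 and -2.62 points in replicate 2, exact adjusted p = 0.0354 and 0.0463). All tests were two-sided, with Benjamini-Hochberg adjustment over 9 shares. The intergenic difference was 5.7 points with family 1 and 6.37 points without it. Without family 1 the unadjusted p was 0.0115 and the adjusted p 0.0518 (Fisher's exact test), so the call was lost although the difference grew. The intergenic difference was 1.91 points and -0.0931 points, with no call, when the strongest peaks of replicate 1 or of replicate 2 were used alone. It also lost its call in the upper 50% of the list, in the looser list and with 1 summit per 10 kb. With promoter distances of 200 bp and 1000 bp the intergenic difference was 4.07 and 3.42 points, with no call (Fisher's exact test, adjusted p = 0.186 and 0.124).

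Along the chromosomes, masked-summit peaks leaned to the autosome arms. Of 322 autosomal masked-summit peaks 227 (70.5%, exact 95% interval 65.2 to 75.4%) were on arms, against 891 of 1439 other peaks (61.9%, 59.4 to 64.4%, Fisher's exact test, adjusted p = 0.0177). Arms are also richer in masked bases than centres (41% and 28.3%). Family 1 accounted for 30 of the 227, and without it the share was 67.5% against 61.9% and did not pass (exact adjusted p = 0.189). Among the 1051 nuclear peaks in the upper 50% of the list the difference was 11.4 points and did not pass (exact adjusted p = 0.0946). It was 18.8 points where the rule was that at least 50% of the bases within 50 bp of the summit be masked (80.2% against 61.4%, exact adjusted p = 1.2e-06), and 11.7 points with 1 summit per 10 kb (exact adjusted p = 0.0122). The X chromosome held 51 masked-summit peaks (13.7%) and 309 other peaks (17.7%), which did not pass (exact adjusted p = 0.0981). The X difference did pass in the strongest peaks of replicate 1 alone (-6.13 points, exact adjusted p = 0.00527) and of replicate 2 alone (-7.83 points, exact adjusted p = 0.000649). The X chromosome is also poorer in masked bases (30.6%) than the nuclear genome as a whole (35.7%). Whether the X difference follows from this was not tested. Chromosome III held 96 masked-summit peaks (25.7%) and 342 other peaks (19.6%), and V held 37 (9.92%) and 225 (12.9%), which were not tested against each other. Of the masked-summit peaks 56.3% lay within 10 kb of another IDR summit, against 51.7% of other peaks (exact adjusted p = 0.124).

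**Figure D3:**
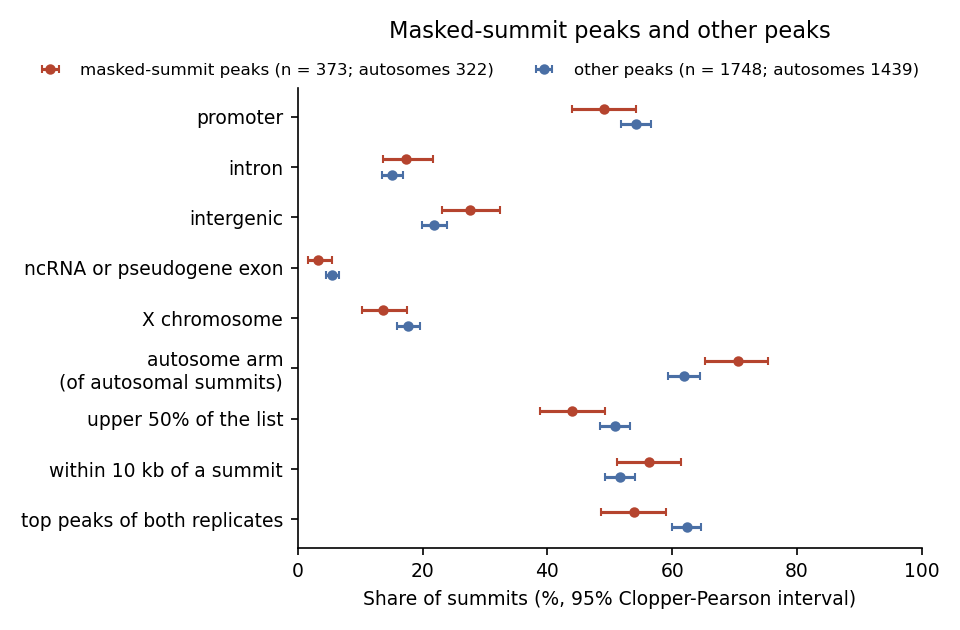
Share (%) of masked-summit peaks (red, upper point of each pair) and other peaks (blue) in each place or class, with exact 95% intervals over peaks. Only the intergenic, arm, upper 50% and both-replicates shares differ beyond the threshold. With family 1 taken out of the masked-summit peaks only, none of these 4 passes. The intergenic difference is then larger (6.37 points, against 5.7 with family 1). The others are smaller in size: arm 5.55 against 8.58, upper 50% -6.43 against -6.83 and both replicates -7.84 against -8.47.

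Fewer masked-summit peaks than other peaks were among the strongest peaks of both replicates. Of 373 masked-summit peaks 201 (53.9%) overlapped one of the 2141 strongest peaks in both replicates, against 1090 of 1748 other peaks (62.4%, two-sided Fisher's exact test, adjusted p = 0.0177). Replicate 1 had 299 of them among its strongest peaks (80.2%, against 81.8% of other peaks), and replicate 2 had 265 (71%, against 77.9%). Without family 1 the shares in both were 54.5% of masked-summit peaks and 62.4% of other peaks (exact adjusted p = 0.0518). When overlap had to cover 50% of both peaks, the difference was -6.33 points and did not pass (exact adjusted p = 0.0662), and in the upper 50% of the list it was -1.68 points (exact adjusted p = 0.418). Among peaks with every 36-base word unique within 150 bp it was -13.5 points (49.7% of masked-summit and 63.2% of other peaks, exact adjusted p = 0.000251).

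The exact summit base often moved on or off the mask between replicates. Among masked-summit peaks, the summit of the overlapping relaxed peak was itself masked in 241 of 372 in replicate 1 (64.8%) and 219 of 372 in replicate 2 (58.9%). Both replicates' summits were masked in 146 of 371 (39.4%) and neither in 57 (15.4%). Among other peaks both were masked in 27 of 1743 (1.55%) and neither in 1457 (83.6%). The replicate summits lay a median of 10 bp (replicate 1) and 16 bp (replicate 2) from the pooled summit of masked-summit peaks, and 8 bp and 14 bp from that of other peaks. The strongest peak followed this pattern, with the lin-13 summit masked in replicate 1 and unmasked in replicate 2.

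**Figure D4:**
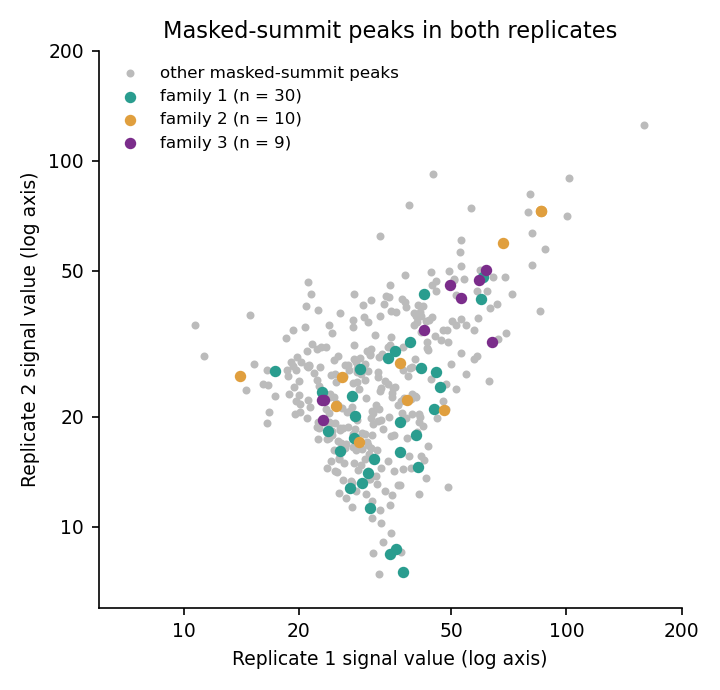
Authors' signal value of each masked-summit peak in replicate 2 against replicate 1 on log axes, with families 1 to 3 coloured. The scales of the lists are not stated. Family 1 spans 17.4 to 60.5 in replicate 1 and 7.53 to 48.1 in replicate 2, family 2 spans 14.1 to 85.8 and 17.1 to 73, and family 3 spans 23 to 63.8 and 19.6 to 50.4, in the same order.

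Alike sequence joined 91 of the 373 members into 16 families of 2 or more (BLAST matches of 50 bp or more at 80% identity). At 90% identity 55 members (14.7%) were in a family. Family 1 was the largest with 30 members, and no other family had more than 10. Its members were 19 peaks in introns, 6 in intergenic sequence, 4 at promoters and 1 in a 3' UTR. Of these 17 were on III, 8 on II and 2 on IV, with 0 on V, 0 on X and the remaining 3 on the other autosome, and all 30 were on autosome arms. The word TACGCAAACA was found in 24 of the 30 windows. Over all members this word lay within 100 bp of 35 masked-summit summits (9.38%), 28 other IDR summits (1.6%) and 334 of 27855 relaxed summits outside the IDR list (1.2%). It was picked for being frequent in members, so its counts describe the members and test nothing.

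The 3 strongest family 1 peaks were above the upper quartile of masked-summit peaks (69.6 pooled), while the family's median was below their median. The peak near fbxc-48, an F-box gene, had 108 pooled, 60.5 in replicate 1 and 48.1 in replicate 2. The peak in a 3' UTR of snf-6, an acetylcholine transporter gene, had 105 pooled, 59.9 in replicate 1 and 42 in replicate 2. The pqn-41 intron peak had 81.6 pooled, 42.6 in replicate 1 and 43.2 in replicate 2. Over the 30 members the median was 49.6 pooled, 35.1 in replicate 1 and 19.7 in replicate 2. Of the 30, 27 were among the strongest peaks of replicate 1, 16 among those of replicate 2, and 14 in both. Every 36-base word within 150 bp of the summit was unique in 13 of the 30, and reads from near-identical copies may be shared in the rest. Over the 30 windows the share of unique words ran from 85% to 100% with a median of 99.4%, so most words were unique in every window.

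Family 1 sequence was common in the genome and few copies carried a peak. Matches to a member that covered its summit marked 1120 nuclear loci, of which 826 (73.8%) were in introns and 1062 of 1064 autosomal ones (99.8%) were on arms. IDR summits lay in 35 of them (3.13%, exact 95% interval 2.19 to 4.32%), 30 masked and 5 on unmasked bases, and pooled relaxed summits in 233 (20.8%). Summits of the relaxed lists lay in 224 loci in replicate 1 (20%) and 196 in replicate 2 (17.5%). The copies held 28.1 IDR summits and 190 relaxed summits per 100 kb, where the nuclear genome had 2.12 and 29.9, and masked bases 1.04 and 28.5. The family was assembled from its peaks, so its density includes the members by construction. Chromosome III held 489 copies (43.7%), II 258 (23%), IV 168 (15%), V 70 (6.25%) and X 56 (5%).

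**Figure D5:**
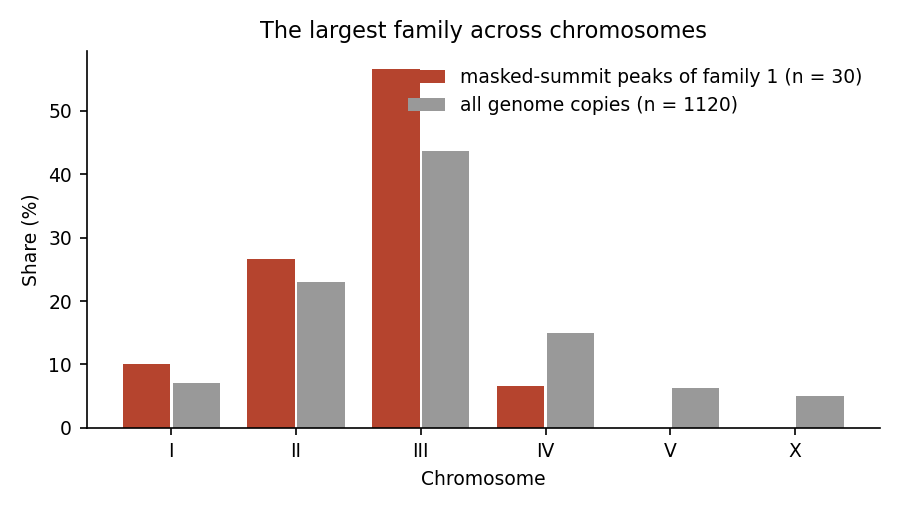
Share (%) of the 30 family 1 peaks (red, left) and of all 1120 genome copies of that sequence (grey, right) on each chromosome. Peaks and copies are both most frequent on III (56.7% of peaks against 43.7% of copies), and no peak was on V or X, which hold 6.25% and 5% of copies.

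The next families were smaller, and their differences from family 1 were not tested. Family 2 had 10 members, 6 at promoters, with 8 of the 10 among the strongest peaks of both replicates and a median pooled signal of 58.5. All 10 carried CCCCTTTTCG within 100 bp of the summit. The eel-1 promoter peak and a second eel-1 peak 560 bp upstream of the 5' end (103 pooled) were both in family 2 and overlapped the same replicate peaks, so their replicate values are shared. The rps-24 peak, at a small ribosomal subunit protein gene, had 128 pooled, 68.3 in replicate 1 and 59.7 in replicate 2. No family 2 window was fully unique in 36-base words (median 52.1%), and of its 130 genome copies 9 (6.92%) held an IDR summit. All 9 of these copies held a member, so this count follows from how the family was assembled. Family 3 was a CA repeat, with ACACACACAC in all 9 members, 5 of them in introns and 4 on X, and 6 of the 9 were among the strongest peaks of both replicates. Its strongest were in introns of kin-20, a casein kinase 1 gene (111 pooled, 61.7 in replicate 1, 50.4 in replicate 2), aak-2, a catalytic subunit of AMP-activated kinase (100.3, 58.9 and 47.3 in the same order), and ppfr-1 (98.6, 49.7 and 45.7 in the same order).

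The smaller families included a dispersed sequence and tRNA genes. Family 5 had 5 members, all at promoters, with a median masked run of 289 bp and a median of 100 nuclear matches. Matches are alignments, and overlapping ones merged into 68 genome copies of its sequence. Of these copies 27 (39.7%) were at promoters and 29 (42.6%) intergenic. Its strongest, 161 bp upstream of ruvb-1, the gene of a RuvB-like ATPase, had 74.8 pooled, 37.2 in replicate 1 and 41.8 in replicate 2. All 5 members of family 4 lay within 100 bp of a tRNA gene, the highest with 96.7 pooled, 49.3 in replicate 1 and 49.8 in replicate 2 on a tRNA gene 1156 bp upstream of ets-5, an ETS-domain transcription factor gene. Over all members 30 (8.04%) lay within 100 bp of a tRNA gene, against 162 other peaks (9.27%). Another non-coding peak overlapped 2 ncRNA genes upstream of egl-9, a prolyl hydroxylase gene (112 pooled, 53.2 in replicate 1, 60.9 in replicate 2).

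The strongest many-copy members were the fbxc-48 peak and the second eel-1 peak, given above. The next, in an intron of pad-1, lay in the longest masked run, 767 bp, and had 80.2 pooled, 47.7 in replicate 1 and 34.6 in replicate 2. The longer tandem near Y41E3.13 had a period of 120 bp, with 62.2 pooled, 40.7 in replicate 1 and 18.2 in replicate 2. Its 979 nuclear matches are alignments, which can overlap within a tandem array, and not 979 separate places. The other longer tandem, 652 bp upstream of Y43F8B.20, had a period of 14 bp and 53.9 pooled, 26.2 in replicate 1 and 25.8 in replicate 2. Only 15 masked-summit peaks (4.02%) had fewer than 50% of their 36-base words unique, against 7 other peaks (0.4%), and 286 (76.7%) against 1463 (83.7%) had all of them unique.

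Among frequent words, GAGACGCAGA marked masked-summit and other peaks alike. It lay within 100 bp of 41 masked-summit summits (11%) and 168 other IDR summits (9.61%), against 599 relaxed summits outside the IDR list (2.15%). The C30E1.4 run printed above holds it on the opposite strand. None of 6 searched motifs differed between masked-summit and other peaks past the threshold (both strands, within 100 bp, two-sided Fisher's exact test, adjusted p from 0.257 to 0.775, 1 of them with an unadjusted p under 0.05). GAGAGAG, which is itself a short repeat, was within reach of 20.4% of masked-summit and 19.7% of other summits, against 6.4% of relaxed summits outside the IDR list. The telomere-like TTAGGC was within reach of 3.49% of masked-summit and 5.03% of other summits, and in the same order of masked-summit and other summits CACGTG had 6.17% and 7.15%, GCGGGAA 5.36% and 4.52%, and TTCNNGAA 10.7% and 8.01%. A run of 8 A or of 8 T was near 16.4% of masked-summit and 12.4% of other summits, with an unadjusted p of 0.0428 in Fisher's exact test, and 24.2% of relaxed summits outside the IDR list. It did pass in the strongest peaks of replicate 1 alone (8.05 points, exact adjusted p = 0.000365) and of replicate 2 alone (6.76 points, exact adjusted p = 0.00342). Such a run is itself low-complexity sequence of the kind the mask marks. Its share therefore depends on the rule that chose the members, and these calls describe the mask as much as the peaks. An exact pair of inverted arms of 12 bp was in 16 masked-summit windows (4.29%) and 41 other windows (2.35%), beside 3.78% of relaxed windows outside the IDR list.

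Genes near masked-summit peaks were counted in 4 lists. Of 19973 protein-coding genes, 233 (1.17%) had a masked summit within 500 bp of a 5' end. Cytosolic ribosomal protein genes had 8 of 78 (10.3%), namely rpl-7, rpl-14, rpl-18, rpl-29, rpl-31, rps-15, rps-22 and rps-24, while 58 of the 78 (74.4%) had any IDR summit in reach and 1397 (6.99%) of all protein-coding genes did. The peaks nearest to rpl-7, rpl-14, rpl-18 and rpl-29 had pooled signal values from 60 to 73.1. Of 20 synMuv B and DREAM genes 2 had a masked summit, lin-35, the worm retinoblastoma gene (82.8 pooled, 50.2 in replicate 1, 36.4 in replicate 2), and lin-36 (92.7 pooled, 54.8 in replicate 1, 35.6 in replicate 2). Of 32 small RNA pathway genes mut-15, a mutator complex gene, had one, and of 72 histone genes 0 had one. Any IDR summit was in reach of 7 of the 20 synMuv B and DREAM genes (35%). The same held for 7 of the 32 small RNA pathway genes (21.9%) and 7 of the 72 histone genes (9.72%). The lists were chosen with earlier results known, and their shares are given as counts only.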

How the data were processed

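Chromatin from whole L4 larvae with tagged lin-13 was immunoprecipitated in 2 biological replicates, which form 1 group per the labels. The authors deposited narrowPeak lists on ce11, a relaxed list of 30000 peaks for each replicate and for the pool, made with a control, and an IDR list of 2141 peaks derived from them, per the deposited listing. For the aligner, the caller and the IDR threshold nothing was given in the sources used here. The deposited signal value has no stated scaling and was used to rank within a list, and values of different lists are only printed side by side. The deposited −log10 q-value column was not used. Depth is unknown.

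Summits were read against the soft-masked WBcel235 genome (masking program not stated there) and Ensembl release 115 genes. The 20 mitochondrial peaks were left out, since no mitochondrial base is masked. The clec-126 summit was kept although it lay 1 bp past the end of its peak. A replicate's value for a peak is its highest overlapping relaxed peak, and 10 and 11 masked-summit peaks shared that peak with another IDR peak in replicates 1 and 2. Each peak was put in the first class that held its summit (promoter, coding exon, 5' UTR, 3' UTR, intron, non-coding or pseudogene exon, intergenic). Nuclear matches were counted as BLAST+ 2.17.0 alignments, and genome copies of a family as places after overlapping alignments were merged. Short tandems needed 80% of bases equal to the base 1 period away, in a run of at least 20 bp and 3 periods. Shares were tested with Fisher's exact or exact binomial tests, two-sided, with Benjamini-Hochberg adjustment and a threshold of 0.05. Intervals are exact Clopper-Pearson 95% intervals and cover counting error only, and no test measures spread between animals. On simulated data with planted shares of 40% and 54% over 2121 peaks, 199 of 200 runs were called, and 7 of 200 runs without a difference. The planted gap was wider than any share difference in the main setting, where the widest was 8.58 points, for arms. These runs therefore do not show how often differences of the reported size would be called.

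Named peaks were the 10 strongest members, the 3 strongest of each kind and of each of the 3 largest families, and the 2 strongest of each position class. Members and lists were chosen with earlier results of these data known. Alternatives were each replicate alone, stricter and looser lists, other mask rules, distances, windows, overlaps and identities, thinning, and subsets added after seeing the data. The software was Python 3.11.15 with SciPy 1.17.1, pandas 2.3.3, NumPy 2.4.6 and matplotlib 3.10.9.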

Additional observations from a re-analysis of the deposited data

How the results depend on the processing

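Of 207 recomputed values, 161 kept their side of the threshold, of which 148 kept their direction and 13 changed sign with no call in either setting. The shares of summits on masked bases in parts of the genome stayed below the share of bases in all 76 recomputations (4.72 to 26%). Differences below are masked-summit minus other peaks, in percentage points. With the strongest peaks of 1 replicate alone, the promoter difference ran from -6.72 (passed, replicate 1) to 0.267, intron from 3.11 to 6.6 (passed, replicate 1), intergenic from -0.0931 (reversed) to 1.91, non-coding exon from -2.62 to -2.54 (both passed), X from -7.83 to -6.13 (both passed), upper 50% from -7.55 to -6.03 (lost, replicate 2) and the A or T run from 6.76 to 8.05 (both passed). The arm call was kept in each replicate alone, in the looser list, with 1 summit per 10 kb and under the 50% mask rule (6.94 to 18.8). In the stricter list 4 calls were lost: intergenic 6.09, arm 11.4, upper 50% -6.27 and both replicates -1.68. In the looser list intergenic was lost (2.61), and non-coding exon (-1.76), X (-6.22), TTCNNGAA (3.08) and the A or T run (8.62) passed. With at least 50% of the bases within 50 bp masked, intergenic reversed (-0.472), upper 50% (-6.19) and both replicates (-7.01) were lost, and intron (7.74), non-coding exon (-5.12), X (-9.81), CACGTG (-6.15) and the A or T run (8.81) passed. With 1 summit per 10 kb, intergenic (5.59), upper 50% (-5.54) and both replicates (-5.05) were lost, and the share within 10 kb has no value there. At 50% overlap both replicates was lost (-6.33), and in a 50 bp window the A or T run passed (4.02). At promoter distances of 200 bp and 1000 bp intergenic was lost (4.07 and 3.42), and these values are not among the 207. Without family 1 the intergenic (6.37), arm (5.55), stronger-half (-6.43) and both-replicates (-7.84) calls were lost, although the intergenic difference grew from 5.7. Peaks with every 36-base word unique kept all 4 calls (7.56, 7.93, -8.8 and -13.5). Without peaks near tRNA genes promoter (-7.9), intron (4.38) and X (-5.03) passed. The share of the A or T run depends on the mask rule itself in every setting. The causes were not tested. Fewer peaks entered the stricter and thinned lists (1051 and 1482 nuclear peaks). No paired analysis was possible because the study has 1 group. The ce10 lists were not run, since a mask of that build was not used here. Single-locus differences and copy-level read sharing are limited by the unknown depth.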
